A study of Mus musculus with 16 samples.

Results

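The TRAF adaptors, the linear ubiquitin chain assembly complex (LUBAC), its deubiquitinase and the TAK1 kinase complex were followed as 10 named genes, Traf1, Traf2, Traf3, Traf6, Rnf31, Rbck1, Sharpin, Otulin, Tab2 and Map3k7, out of 55414 genes in the count table. They were taken as the named genes of these complexes, with earlier results of these data known. The 16 libraries came from FACS-sorted Paneth cells (PCs) of the small intestine of C57BL/6J mice, with 4 libraries in each of 4 injection groups. Every mouse received a first injection of PBS or DEX (the usual abbreviation of the glucocorticoid dexamethasone, which the labels do not spell out), a second injection of PBS or TNF 1 h later, and was sampled 3 h after the second injection. Group names give both injections in order, so that DEX+TNF received DEX and then TNF, PBS+TNF received TNF without DEX, DEX+PBS received DEX without TNF, and PBS+PBS received neither. No genetic modification was named for any group, and doses, sex and age were not given in the sources used here.

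When TNF binds its receptor, TRAF proteins are drawn to the receptor and bring ubiquitin ligases with them. LUBAC, built from HOIP (encoded by Rnf31, the catalytic ligase), HOIL-1 (Rbck1) and SHARPIN, then adds linear ubiquitin chains, and OTULIN cuts those chains specifically. TAK1 (Map3k7) with its chain-binding partner TAB2 is recruited to the ubiquitin scaffold and activates the IKK and MAP kinase branches, which lead to NF-kB activity. PCs are the epithelial cells at the crypt base that secrete antimicrobial peptides, and they carry TNF receptors.

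Total counts ranged from 7286307 to 15832111 per library, and TMM scaling factors from 0.418 to 1.5. The summed CPM (counts scaled to a common library total) of 8 Paneth markers lay between 424500 and 635800 in every library, and the T and dendritic cell markers Cd3e, Cd8a and Itgax were at 0 in all 16. Other immune-list genes were not: Lyz2 and Cd74 had counts in every library, with 10700 and 18428 summed counts, and the immune sum was 42.55 to 390 CPM in DEX+PBS, 117 to 219 in DEX+TNF, 70.6 to 159 in PBS+PBS and 57.4 to 231 in PBS+TNF. Within DEX+TNF the libraries differed in their TNF response. Nfkbia, the NF-kB target that encodes an inhibitor of NF-kB, stood at 330 and 382 normalised CPM in DEX+TNF 1 and 2, but at 28.3 and 41.0 in DEX+TNF 3 and 4. The 4 PBS+TNF libraries lay between 277 and 337, and the 8 libraries without TNF between 15.6 and 27.3. DEX+TNF 3 and 4 were therefore close to the libraries without TNF, and the results that rest on DEX+TNF are given with and without them. Enterocyte, tuft and enteroendocrine cell markers moved with this split. The summed plain CPM of 7 enterocyte markers was 4.87 and 5.36 in DEX+TNF 1 and 2 against 33.6 and 446 in DEX+TNF 3 and 4, and that of 4 tuft cell markers 0.782 and 0.165 against 90.1 and 634. In the other groups the enterocyte sum was 19.2 to 121 (PBS+PBS), 9.08 to 57.8 (PBS+TNF) and 15.95 to 30.3 (DEX+PBS), and the tuft sum 2.76 to 39.03, 4.01 to 128 and 15.3 to 83.0. The enterocyte genes Apoa1, Apoa4 and Fabp1 and the tuft genes Dclk1 and Il25 were at 0 in DEX+TNF 1 and 2, whereas DEX+TNF 4 held counts for all 7 and all 4. Goblet markers ran the other way, at 4176 and 5974 CPM in DEX+TNF 1 and 2 against 1939 and 3388 in DEX+TNF 3 and 4. Stem cell markers, at 311, 257, 332 and 1825 CPM in DEX+TNF 1 to 4, were highest in DEX+TNF 4. The 5 enteroendocrine markers summed to 0.0869 and 0.0 CPM in DEX+TNF 1 and 2 and to 12.02 and 17.3 in DEX+TNF 3 and 4. In the other groups the goblet sum was 3389 to 5958 (PBS+PBS), 1272 to 9317 (PBS+TNF) and 2089 to 7807 (DEX+PBS). Within PBS+TNF it was 1272, 9317, 5075 and 8774 in libraries 1 to 4. Over these groups the stem sum ran from 208 to 1192 and the enteroendocrine sum from 0.0 to 13.4. The part of these markers in the differences below was not tested. In sorted cells pooled for one library, a change in the number of expressing cells and a change in RNA per cell cannot be told apart.

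**Figure D1:**
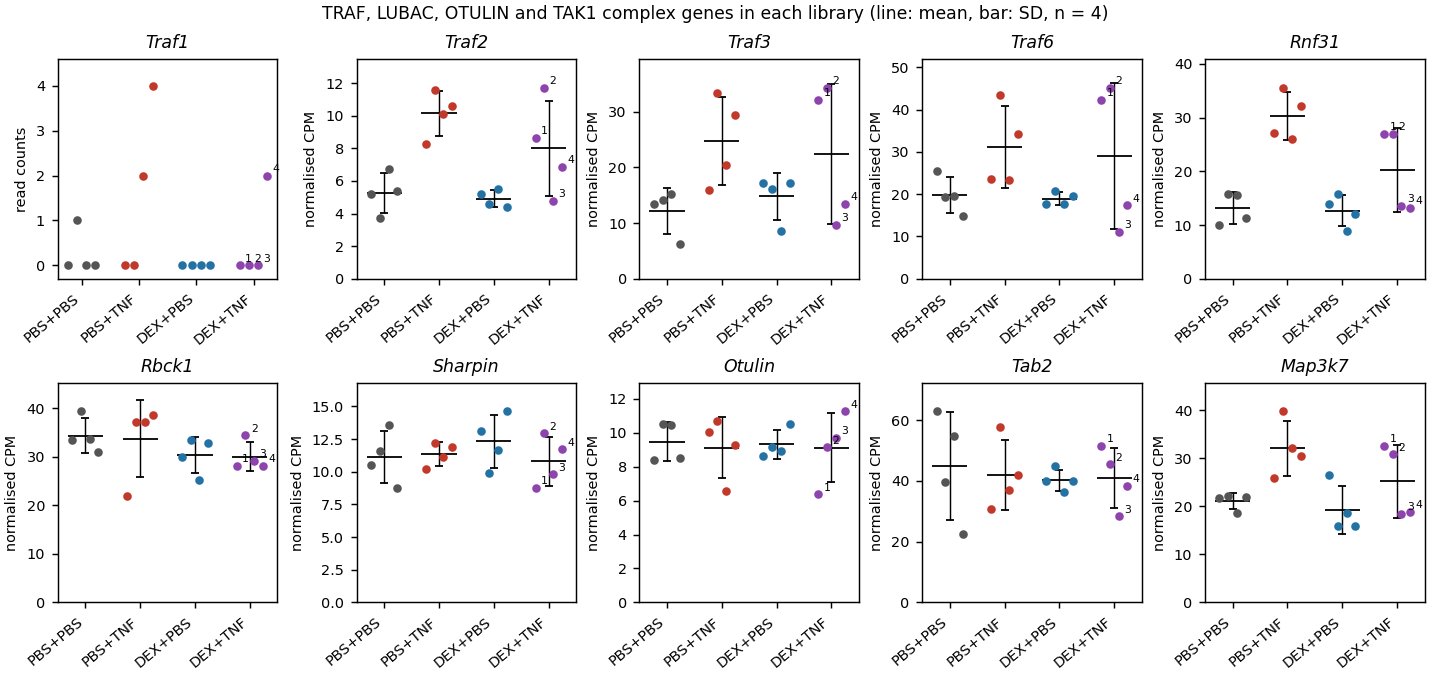
Level of each of the 10 genes in every library by injection group, as normalised CPM (for Traf1, read counts). Points are libraries, lines the mean and bars the SD over 4 libraries, and the digits mark the DEX+TNF libraries. Rnf31, Traf2, Traf3 and Map3k7 were higher in all 4 PBS+TNF libraries than in any PBS+PBS library, beside 10.8% of all genes tested. Traf6, Rbck1, Sharpin, Otulin and Tab2 overlapped between these groups.

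A level is the normalised CPM of a library (CPM after TMM scaling), and a difference between groups is a log2 fold change with its standard error (SE) from edgeR's quasi-likelihood test, with Benjamini-Hochberg adjustment over all genes tested and a threshold of 0.05. Of the 10 genes, 9 passed the low-count filter that left 11809 genes, and Traf1 did not. To rank genes against each other, levels were divided by the length of the canonical transcript. In PBS+PBS, Rbck1 was highest at 12.99 ± 1.34 CPM per kb (SD, n = 4), followed by Tab2 (9.70 ± 3.85), Sharpin (4.76 ± 0.855), Map3k7 (3.61 ± 0.284), Rnf31 (3.02 ± 0.674), Traf6 (2.49 ± 0.546), Otulin (2.40 ± 0.297), Traf2 (1.71 ± 0.402) and Traf3 (1.70 ± 0.573). The ranges over libraries of every neighbouring pair in this order overlapped. In PBS+TNF, Rnf31 stood behind Rbck1 and Tab2 at 6.93 ± 1.02 CPM per kb, above Map3k7 (5.47 ± 0.989) and Sharpin (4.86 ± 0.382), and Otulin was lowest of the 9 at 2.31 ± 0.459 CPM per kb.

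TNF alone (PBS+TNF) was set against PBS+PBS to see how these genes responded in PCs. Rnf31 and Traf2 rose, 2 of the 9 genes tested. No member fell. Over all genes 12.5% were called in this comparison, and 7.15% were called higher. The member median log2 fold change was 0.60 against -0.03 over all genes tested. Rnf31, Traf2, Traf3 and Map3k7 were higher in every PBS+TNF library than in any PBS+PBS library, 4 of 9 members beside 10.8% of all genes tested.

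**Figure D2:**
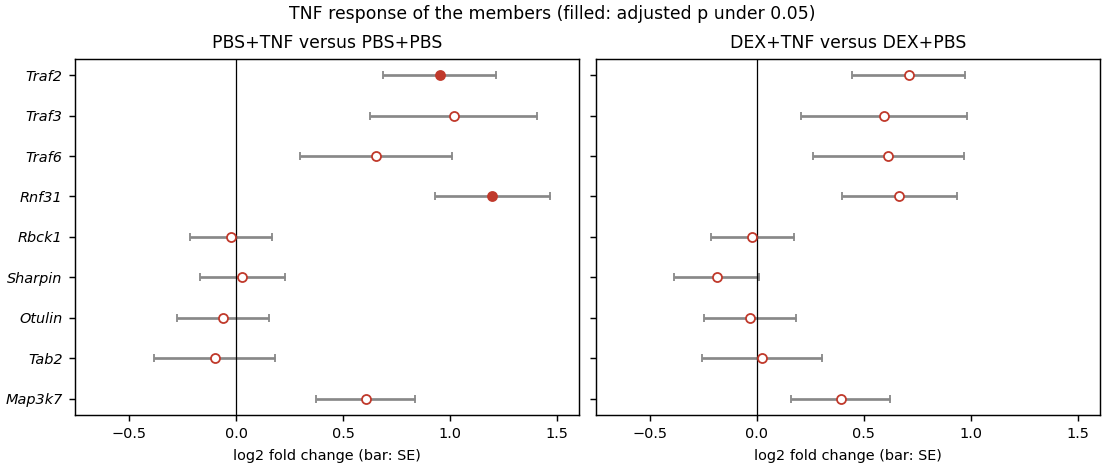
Log2 fold change with its SE for the 9 genes tested, PBS+TNF against PBS+PBS (left) and DEX+TNF against DEX+PBS (right). Filled points passed an adjusted p of 0.05 in edgeR's quasi-likelihood test: Rnf31 (1.20) and Traf2 (0.95) on the left and none on the right.

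Among the TRAF adaptors, Traf2 encodes the adaptor that binds the TNF receptor 1 complex and carries the cIAP ligases. It lies on chromosome 2 at 25406097-25436987 (GRCm39, minus strand). Its level was 5.23, 3.70, 6.73 and 5.40 CPM in PBS+PBS 1 to 4 and 8.28, 11.6, 10.1 and 10.6 CPM in PBS+TNF 1 to 4. The groups did not overlap, and the lowest TNF library was above the highest control. The log2 fold change was 0.95 (SE 0.263, adjusted p = 0.0248, edgeR's quasi-likelihood test with Benjamini-Hochberg adjustment). The call was kept in 19 of 25 alternative settings, with adjusted p from 0.00668 to 0.0826. It was lost without PBS+PBS 1 (adjusted p = 0.0624), PBS+PBS 2 (0.0826), PBS+TNF 2 (0.0671), PBS+TNF 3 (0.0540) or PBS+TNF 4 (0.0544), and with no low-count filter (0.0538), all by edgeR's test. Among single libraries of the compared groups, only leaving out PBS+PBS 3, PBS+PBS 4 or PBS+TNF 1 kept the call. Settings that left out only DEX libraries hardly test it, with log2 fold changes of 0.951 to 0.953. The lowest adjusted p, 0.00668 (edgeR), came from leaving out DEX+TNF 3 and 4. The sequence just upstream of its canonical start, shown because Traf2 is one of the called members and held neither motif described below, is at chr2:25436988-25437237 on the minus strand (GRCm39), and 147 of its bases were G or C.
Traf2 upstream: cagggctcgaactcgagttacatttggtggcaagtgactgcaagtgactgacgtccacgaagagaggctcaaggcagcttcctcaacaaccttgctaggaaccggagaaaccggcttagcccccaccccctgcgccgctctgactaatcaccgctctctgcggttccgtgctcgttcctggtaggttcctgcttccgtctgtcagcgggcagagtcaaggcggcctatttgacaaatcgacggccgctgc

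Traf3 (chromosome 12, 111132776-111233589, plus strand), which restrains the non-canonical NF-kB kinase NIK and also serves interferon-inducing receptors, did not pass the test. Its level was 13.4, 14.1, 15.3 and 6.16 CPM in PBS+PBS 1 to 4 and 16.0, 33.3, 20.4 and 29.3 CPM in PBS+TNF 1 to 4. The groups did not overlap, but the lowest TNF library was only just above the highest control and the TNF libraries were widely spread. The log2 fold change was 1.02 (SE 0.390, adjusted p = 0.0987, edgeR's quasi-likelihood test). Traf6 (chromosome 2, 101508519-101533545, plus strand), the ligase used by interleukin-1 and Toll-like receptors, had 25.5, 19.3, 19.5 and 15.0 CPM in PBS+PBS and 23.5, 43.5, 23.3 and 34.2 CPM in PBS+TNF. PBS+TNF 1 and 3 lay inside the control range, and the log2 fold change of 0.65 (SE 0.353) had an adjusted p of 0.258 (edgeR).

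Traf1, which binds TRAF2 and is a familiar NF-kB target in lymphoid cells, was almost undetected. The counts were 0, 0, 2 and 4 in PBS+TNF 1 to 4 and 0, 1, 0 and 0 in PBS+PBS 1 to 4. DEX+TNF 4 held 2 counts, and the other 7 DEX libraries held 0. A count of 0 allowed a level of up to 0.578 CPM in the library where 3 counts weigh most, PBS+TNF 1. The summed 6 counts of PBS+TNF against 1 of PBS+PBS gave a CPM ratio of 5.77 with an exact 95% interval of 0.700 to 265, which covers counting error only, so a difference was not detectable at this depth. Traf1 (chromosome 2, 34831762-34851837, minus strand) also shares 349 exonic bases with the lncRNA Gm74856 on the opposite strand.

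Of the 3 LUBAC subunits, Rnf31 was called and Rbck1 and Sharpin were not; the difference between subunits was not tested. Rnf31, which encodes the catalytic subunit HOIP, lies on chromosome 14 at 55828443-55841309 (GRCm39, plus strand). Its level was 10.02, 15.8, 15.6 and 11.3 CPM in PBS+PBS 1 to 4 and 27.2, 35.6, 26.1 and 32.2 CPM in PBS+TNF 1 to 4. All TNF libraries were well above all controls, with no overlap. The log2 fold change was 1.20 (SE 0.271, adjusted p = 0.00848, edgeR's quasi-likelihood test with Benjamini-Hochberg adjustment). The call was kept in 25 of 25 alternative settings, with log2 fold changes from 1.08 to 1.30 and adjusted p from 0.000574 to 0.0352. With single PBS+PBS or PBS+TNF libraries left out, the adjusted p was 0.0151 to 0.0352 (edgeR).

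Rnf31 shares sequence with its neighbours in the GENCODE M39 annotation. Its exons overlap those of Psme2, a proteasome activator subunit gene on the opposite strand, over 731 bases, and those of Irf9, an interferon-response transcription factor gene on the same strand, over 282 bases. Both neighbours were also higher with TNF. Irf9 rose by a log2 fold change of 1.23 (adjusted p = 0.00292) and Psme2 by 1.69 (adjusted p = 0.0427), both by edgeR's test. The Psme2 call was lost in 13 of 25 alternative settings (adjusted p up to 0.168, without PBS+TNF 1), and PBS+PBS 4 overlapped the TNF libraries. How reads in the shared bases were assigned is not given in the sources used here, and their part in the Rnf31 value was not tested.

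Motif searches covered both strands of windows around the canonical starts of 21770 protein-coding genes, from just upstream to shortly after the start. An interferon-response-like motif, TTTC followed by any 2 bases and TTTC again, occurred in 3.84% of all windows and in 1 of the 10 members, Rnf31. That match began 49 bases before the Rnf31 start, in a stretch that is also an annotated UTR of Psme2 on the other strand. The kappa-B consensus occurred in 4.87% of all windows and also in 1 member, Traf3, where it began 18 bases after the start, in the UTR of Traf3. Both sites are shown because they are the matches among the members, from GRCm39 on the plus strand, at chr14:55828384-55828413 and chr12:111132784-111132813, with the matched bases in capitals. Each match is a description of the letters and not evidence of a bound factor, and windows without a match say nothing about the factors.
Rnf31 site: cagccccagcTTTCGCTTTCactctccagg
Traf3 site: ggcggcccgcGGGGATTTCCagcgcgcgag

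Rbck1 (chromosome 2, 152154456-152174609, minus strand), which encodes the HOIL-1 subunit, had 33.5, 39.3, 33.6 and 30.9 CPM in PBS+PBS and 21.96, 37.2, 37.2 and 38.5 CPM in PBS+TNF. PBS+TNF 1 was below every control and the other PBS+TNF libraries lay within the control range. The log2 fold change was -0.02 (SE 0.193, adjusted p = 0.965, edgeR), and without PBS+TNF 1 it was 0.12. Sharpin (chromosome 15, 76230571-76235948, minus strand), the remaining subunit, had 10.5, 11.6, 13.6 and 8.79 CPM in PBS+PBS and 10.2, 12.2, 11.1 and 11.9 CPM in PBS+TNF. The groups overlapped fully, and the log2 fold change was 0.03 (SE 0.198, adjusted p = 0.957, edgeR). Exons of Rbck1 overlap those of Tbc1d20 over 1347 bases and exons of Sharpin those of Maf1 over 1151 bases, in both cases on the opposite strand. Neither Tbc1d20 (log2 fold change 0.39, adjusted p = 0.454) nor Maf1 (-0.22, adjusted p = 0.615) passed edgeR's test.

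Otulin (chromosome 15, 27542721-27631297, minus strand), the deubiquitinase that acts on linear chains, had 8.40, 10.5, 10.5 and 8.54 CPM in PBS+PBS and 10.02, 10.7, 6.54 and 9.31 CPM in PBS+TNF. The log2 fold change was -0.06 (SE 0.215, adjusted p = 0.909, edgeR), and the groups overlapped. The ratio of Otulin to Rnf31 counts within each library was one of the ratios compared. It uses the same counts as the Rnf31 result, so with Rnf31 separated between the groups and Otulin overlapping, a lower ratio was all but given and adds no independent evidence. It was 0.838, 0.668, 0.671 and 0.756 in PBS+PBS 1 to 4 and 0.369, 0.300, 0.251 and 0.289 in PBS+TNF 1 to 4. All TNF libraries were lower, with no overlap. The geometric mean was 0.299 against 0.730, a log2 difference of -1.29 (two-sided exact permutation test, n = 4 per group, p = 0.0286, the smallest that 70 assignments can give, and 0.171 after adjustment over 12 ratio tests). The counts behind this ratio ran from 52 to 196 for Otulin and from 90 to 651 for Rnf31 in these 8 libraries.

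Map3k7 (chromosome 4, 31963864-32051628, plus strand) encodes TAK1, the kinase that activates IKK. Its level was 21.7, 22.2, 18.6 and 21.98 CPM in PBS+PBS and 25.8, 39.7, 32.1 and 30.5 CPM in PBS+TNF. The groups did not overlap, yet the log2 fold change of 0.60 (SE 0.233) had an adjusted p of 0.0994 (edgeR). Tab2 (chromosome 10, 7781417-7832252, minus strand), its chain-binding partner, had 63.0, 39.6, 54.8 and 22.5 CPM in PBS+PBS and 30.8, 57.8, 37.1 and 41.9 CPM in PBS+TNF. The controls of Tab2 spanned a wider range than the TNF libraries, and the log2 fold change was -0.10 (SE 0.281, adjusted p = 0.881, edgeR). The ratio of Tab2 to Map3k7 counts was 1.29 in PBS+TNF against 1.99 in PBS+PBS (geometric means, two-sided exact permutation test, n = 4, p = 0.171, adjusted p = 0.490). The Sharpin to Rbck1 ratio was 0.345 against 0.321 (exact permutation p = 0.543, adjusted p = 0.724).

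**Figure D3:**
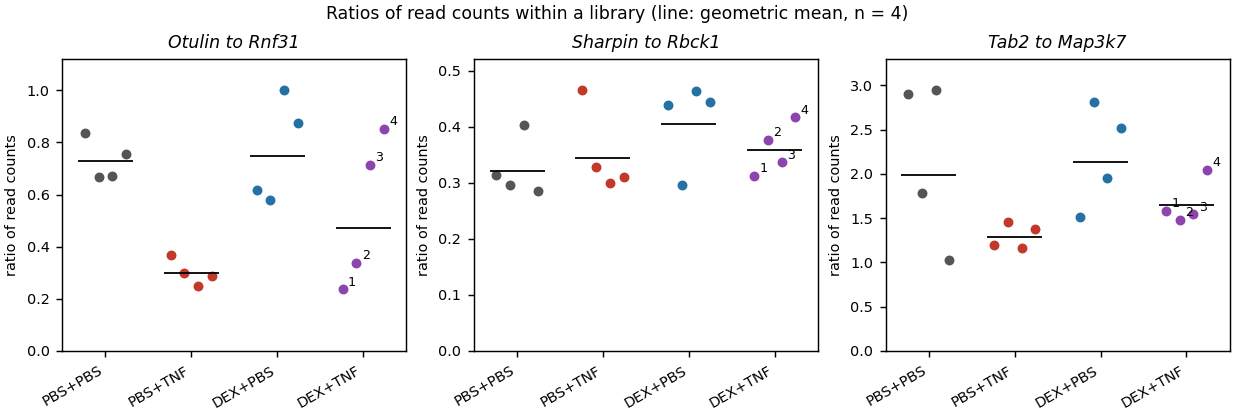
Ratio of read counts of paired members within each library (points), with the geometric mean of 4 libraries as a line, for Otulin to Rnf31, Sharpin to Rbck1 and Tab2 to Map3k7. The Otulin to Rnf31 ratio was 0.251 to 0.369 in PBS+TNF and 0.668 to 0.838 in PBS+PBS, and the DEX+TNF libraries (digits) fell on both sides.

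DEX alone was compared with PBS alone to see whether the first injection changed the resting level of these genes. None of the 9 members was called in DEX+PBS against PBS+PBS, none had an unadjusted p under 0.05, and DESeq2 called 0 as well. Over all genes 0.00847% were called (edgeR). Log2 fold changes ran from -0.18 for Rbck1 to 0.27 for Traf3, with SEs from 0.193 to 0.389. Rnf31 had 13.96, 15.8, 8.93 and 12.1 CPM in DEX+PBS 1 to 4, within or just beyond the control range, for a log2 fold change of -0.06 (SE 0.270). Traf2 had 5.22, 4.58, 5.50 and 4.38 CPM, all inside the range of PBS+PBS. The Otulin to Rnf31 ratio was 0.748 in DEX+PBS and 0.730 in PBS+PBS (exact permutation p = 0.886).

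TNF after DEX was then compared with DEX alone. None of the 9 members was called in DEX+TNF against DEX+PBS, where 0.339% of all genes were called. Traf2 and Rnf31 had an unadjusted p under 0.05, and DESeq2 called 0 members. Rnf31 was at 26.9 and 27.0 CPM in DEX+TNF 1 and 2 and at 13.6 and 13.2 CPM in DEX+TNF 3 and 4. The first pair lay in the range of PBS+TNF and the second in that of the libraries without TNF. Its log2 fold change was 0.67 (SE 0.269, adjusted p = 0.368, edgeR). Traf2 had 8.63, 11.7, 4.80 and 6.88 CPM in DEX+TNF 1 to 4, of which DEX+TNF 3 lay within the DEX+PBS range and DEX+TNF 4 above it. Its log2 fold change was 0.71 (SE 0.264, adjusted p = 0.305, edgeR).

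The same split was seen in other members. Traf3 was at 32.1 and 34.3 CPM in DEX+TNF 1 and 2 against 9.70 and 13.5 in DEX+TNF 3 and 4, and Traf6 at 42.4 and 45.2 against 11.1 and 17.4. Map3k7 was at 32.6 and 30.8 CPM in the first pair and 18.4 and 18.8 in the second. For these 3 genes, as for Rnf31, DEX+TNF 1 and 2 were above all DEX+PBS libraries and DEX+TNF 3 and 4 were not. Rbck1 (28.2, 34.4, 29.1 and 28.1 CPM) and Sharpin (8.79, 12.9, 9.80 and 11.7 CPM) did not divide in this way. Otulin (6.37, 9.14, 9.70 and 11.3 CPM) was lower and Tab2 (51.5, 45.5, 28.4 and 38.4 CPM) higher in DEX+TNF 1 and 2.

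**Figure D4:**
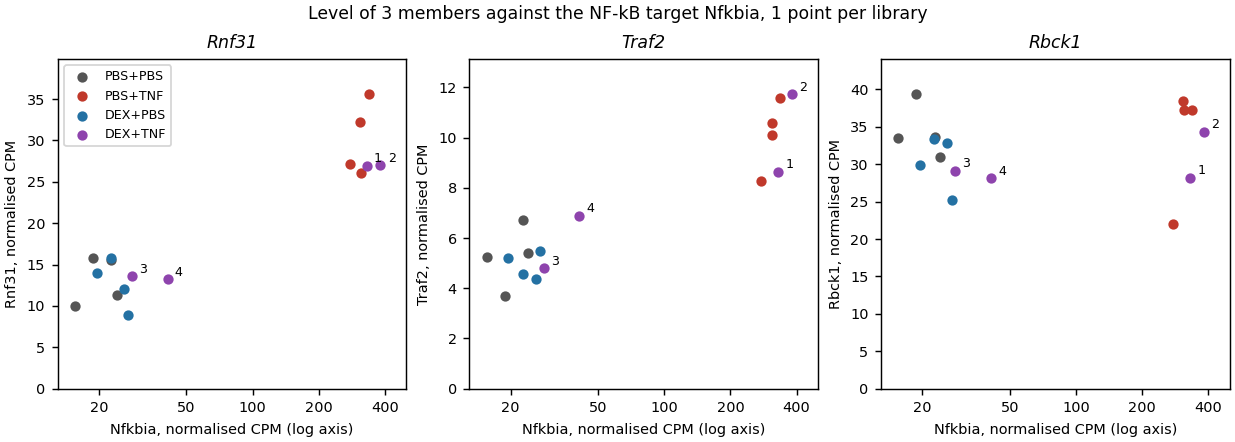
Normalised CPM of Rnf31, Traf2 and Rbck1 against that of the NF-kB target Nfkbia (log axis), 1 point per library and 1 colour per group, with digits for DEX+TNF. DEX+TNF 1 and 2 lie with PBS+TNF and DEX+TNF 3 and 4 near the groups without TNF for Rnf31, while Rbck1 shows no such split.

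Without DEX+TNF 3 and 4, 4 members were called in DEX+TNF against DEX+PBS, beside 10.5% of all genes. The group then held DEX+TNF 1 and 2 alone, which were the most alike of all pairs of libraries within a group (chi-square per degree of freedom of their counts 8.78, next lowest 23.5). Traf6 rose by a log2 fold change of 1.21 (SE 0.258, adjusted p = 0.00589), Traf3 by 1.16 (SE 0.347, adjusted p = 0.0410), Rnf31 by 1.09 (SE 0.250, adjusted p = 0.0101) and Traf2 by 1.06 (SE 0.264, adjusted p = 0.0166), all by edgeR's quasi-likelihood test. Map3k7 had 0.73 (SE 0.234, adjusted p = 0.0573, edgeR), and Rbck1, Sharpin, Otulin and Tab2 lay between -0.27 and 0.27. These libraries were left out after their values were seen, and the members move with Nfkbia, so these calls describe the remaining libraries and do not show that TNF acted after DEX in the group as labelled. SEs were smaller in this fit, for example 0.219 against 0.353 for Traf6 in PBS+TNF against PBS+PBS. In PBS+TNF against PBS+PBS the members called went from 2 to 5, adding Traf3 (adjusted p = 0.0250), Map3k7 (0.0412) and Traf6 (0.0487, all edgeR), beside 17.7% of all genes, with log2 fold changes almost as before (1.02, 0.61 and 0.65).

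Whether DEX altered the TNF response was addressed by DEX+TNF against PBS+TNF and by the interaction, the TNF effect after DEX minus that after PBS. In the first, 0 of 9 members were called, 1 had an unadjusted p under 0.05, DESeq2 called 0, and 0.339% of all genes were called. That member was Rnf31, with a log2 fold change of -0.59 (SE 0.267, adjusted p = 0.395, edgeR), which was -0.17 (SE 0.257, adjusted p = 0.799, edgeR) without DEX+TNF 3 and 4. In that fit the members ran from -0.23 for Otulin to 0.49 for Traf6, and the lowest adjusted p was 0.542 (edgeR). In the interaction, 0 of 9 members and 0.0% of all genes passed edgeR's test, while 642 genes had an unadjusted p under 0.05, none of them a member, and DESeq2 called 8 genes and 0 members. The interaction was -0.53 (SE 0.379) for Rnf31 and -0.24 (SE 0.371) for Traf2, and -0.11 (SE 0.333) and 0.10 (SE 0.349) without DEX+TNF 3 and 4. The geometric mean Otulin to Rnf31 ratio in DEX+TNF was 0.470, made of 0.237 and 0.338 in libraries 1 and 2 and 0.714 and 0.853 in libraries 3 and 4. It did not differ beyond its spread from PBS+TNF (exact permutation p = 0.286) or DEX+PBS (p = 0.257, exact permutation test). The Tab2 to Map3k7 ratio was 1.65 in DEX+TNF against 1.29 in PBS+TNF, with no overlap (exact permutation p = 0.0286, adjusted p = 0.171). DEX+TNF 1 and 2 alone had 1.58 and 1.48 against 1.16 to 1.46 in PBS+TNF.

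The rest of the pathway was followed in 5 lists of 51 genes, 46 of which were tested. In PBS+TNF against PBS+PBS 17 were higher and 3 lower, and their median log2 fold change was 0.53 against -0.03 over all genes. The lists were chosen with earlier results of these data known. An excess over all genes may thus be partly built in, and the list counts are descriptions. The list counts below stand beside 7.15% of all genes called higher and 12.5% called in either direction, and nothing is read from 1 of 6 or 2 of 13 called higher. Among other TRAF family genes and TRAF-binding adaptors, 2 of 8 rose and none fell. Tifa, a TRAF6-activating adaptor, rose by a log2 fold change of 3.67 (adjusted p = 0.00123) and Trafd1, a feedback regulator that carries a TRAF-type zinc finger, by 0.92 (adjusted p = 0.0210, both edgeR). Receptors and adaptors upstream of the TRAFs gave 6 of 12 higher and none lower, among them the TNF receptor 2 gene Tnfrsf1b (3.38), the TWEAK receptor gene Tnfrsf12a (2.60), the Toll-like receptor adaptor gene Myd88 (2.00) and the kinase gene Ripk1 (1.59).

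Genes that trim or read ubiquitin and those that pass the signal on were listed separately. Of deubiquitinases and ubiquitin readers other than Otulin, 6 of 7 rose. These included Tnfaip3, encoding the A20 ubiquitin editor, with a log2 fold change of 4.05 (adjusted p = 0.00679), its partner Tnip1 with 3.25 (adjusted p = 0.00117), the ubiquitin-binding autophagy receptor gene Optn with 1.499 (adjusted p = 0.00641), and Cyld, a deubiquitinase that also cuts linear chains, with 1.11 (adjusted p = 0.0262, all edgeR). N4bp1 and Tnip2 were the other called genes of this list, and kept their calls in 25 of 25 alternative settings. Of ubiquitin-conjugating enzymes and partner ligases, 1 of 6 rose, the cIAP2 gene Birc3, with a log2 fold change of 4.41. Among the TAK1, IKK and MAP kinases downstream, 2 of 13 rose and 3 fell. Map2k3 (1.30) and the NIK gene Map3k14 (1.13) rose, and Ikbkg, encoding the linear chain reader NEMO of the IKK complex (-0.69), Map2k6 (-1.05) and the p38 kinase gene Mapk14 (-0.72) fell. The TAK1 partners Tab1 (-0.33) and Tab3 (-0.07) did not pass the test. Without PBS+TNF 2 the calls of Trafd1, Cyld, Ikbkg, Map3k14, Map2k6 and Mapk14 were lost (adjusted p from 0.05004 to 0.0909, edgeR). Each was also lost without some other single library of these groups. Mapk14 lost its call most often, in 8 of 25 alternative settings. Among single libraries of these groups, it kept its call only without PBS+PBS 4 (adjusted p = 0.0198, edgeR). Trafd1 lost its call without PBS+PBS 1 or 2 or PBS+TNF 2, 3 or 4. Map2k6 lost it without PBS+PBS 1, 2 or 4 or PBS+TNF 2 or 4.

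**Figure D5:**
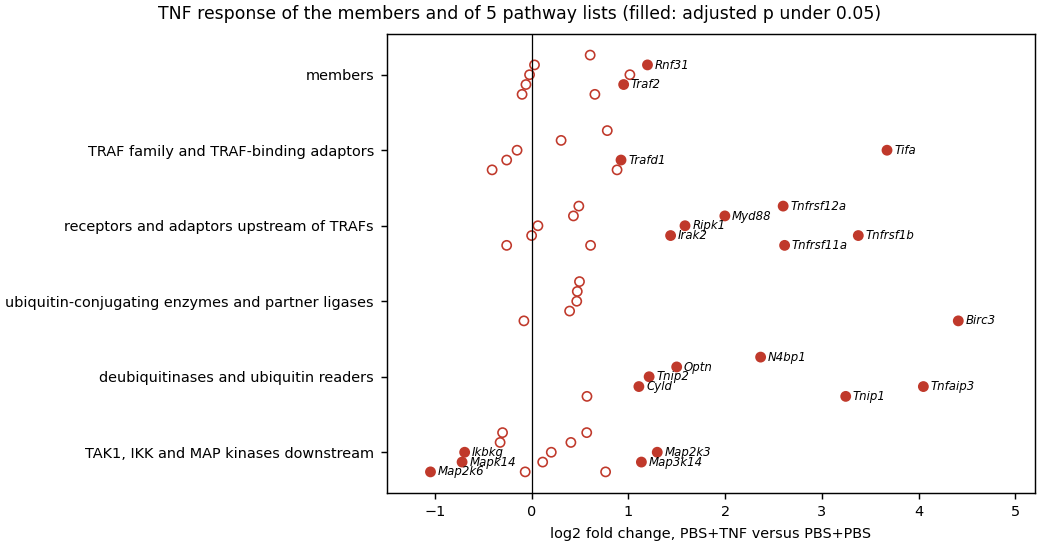
Log2 fold change of PBS+TNF against PBS+PBS for the members and for the genes of the 5 pathway lists, 1 point per gene tested, filled and named where the adjusted p was under 0.05 (edgeR). The deubiquitinases and readers held 6 called genes of 7, up to 4.05 for Tnfaip3, and the members 2 of 9, up to 1.20 for Rnf31. Members and lists were chosen with earlier results of these data known.

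In DEX+TNF against DEX+PBS, 2 of the 46 list genes were called, Tnfaip3 (4.47) and Tnip1 (2.67), each with an adjusted p of 0.0456 (edgeR), beside 0.339% of all genes. Tnfaip3 was at 115 and 110 CPM in DEX+TNF 1 and 2 and at 2.25 and 7.38 in DEX+TNF 3 and 4. Leaving out DEX+TNF 3 gave 11 called list genes, leaving out DEX+TNF 4 gave 9, leaving out both gave 20, and leaving out any single one of the other libraries gave 0. The counts over all genes moved in the same way, from 40 to 362, 230, 1286 and 0.

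Across all 16 libraries, on the log2 CPM scale, Rnf31 followed Traf3 (Pearson r = 0.83), Traf2 (0.82), Map3k7 (0.81) and Traf6 (0.75) more closely than its LUBAC partners Rbck1 (0.26) and Sharpin (-0.0023). The points share the injection groups and library scaling, so these values are descriptions. Without DEX+TNF 3 and 4 (14 libraries) they were 0.83, 0.83, 0.80, 0.77, 0.21 and -0.03. Of 7938 genes searched, those most like Rnf31 were Lrrfip1 (r = 0.98), Zyx (0.97) and Muc1 (0.97), those most like Traf2 were Gbp7 (0.95), Relb (0.94) and Kctd3 (0.93), and those most like Traf3 were Srebf2 (0.97), Plxnb2 (0.97) and Nhsl3 (0.97). Nfkbia had r = 0.91 with Rnf31, 0.92 with Traf2 and 0.75 with Traf3, and 0.91, 0.92 and 0.74 without DEX+TNF 3 and 4. The r values of the other named genes were 0.93 to 0.98 in those 14 libraries.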

How the data were processed

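Bulk RNA-seq was done on sorted Paneth cells with a TruSeq Stranded mRNA kit. The deposited values are raw read counts per gene made by the authors, who aligned reads with STAR to GRCm39 (mm39) with GENCODE M30. The submitters' processing notes name STAR 2.7.10a, FastQC 0.12 and DESeq2, and the counting program, its strand setting and its handling of reads shared by genes are not given in the sources used here. Gene names were taken from GENCODE M39, in which 54749 identifiers matched and 665 did not; the latter held 0.00519% of counts.

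The counts were scaled by TMM factors, filtered with filterByExpr and fitted over all 16 libraries with edgeR 4.0.16 (R 4.3.3, robust quasi-likelihood test, Benjamini-Hochberg adjustment over 11809 genes, threshold 0.05). The fit was also run on simulated counts with set fold changes and no split within a group, and its outcome is not reported here. DESeq2 1.42.0 was an alternative, with other scalings, filters, a replicate block and each library left out in turn. Ratios of counts were compared by two-sided exact permutation tests over libraries. Intervals and the floor of 3 counts cover counting error only. Depth ran from 7286307 to 15832111 counts per library. No labels say that the libraries of a group came from separate mice, so p-values measure the spread between libraries, and the study describes individual mice in general. The members and the 5 gene lists were chosen with earlier results of these data known. Within each list, at most 4 called genes with small p in PBS+TNF against PBS+PBS were named with values. The members' partners and the genes overlapping members were also named. Mapk14, Tab1, Tab3 and Cyld were added after their values were seen. Of the deubiquitinases and readers, N4bp1 and Tnip2 were called but are given without log2 fold changes. Windows for motifs came from the GRCm39 genome. Deviations from the group mean correlated from -0.365 to 0.504 between same-numbered libraries of different groups. Libraries with different numbers were not compared, so this cannot show whether the numbers pair the libraries.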

Additional observations from a re-analysis of the deposited data

Results flagged for a closer look

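Of 48 groups of 4 libraries tested, 5 had 1 library standing apart from the other 3 by Dixon's criterion, and chance alone flags about 1 in 20 such groups. Rbck1 in PBS+TNF 1 was 21.96 CPM against 37.2 to 38.5 CPM in the other PBS+TNF libraries, and Rbck1 in DEX+TNF 2 was 34.4 CPM against 28.1 to 29.1 CPM. Traf3 in DEX+PBS 3 was 8.59 CPM against 16.2 to 17.2 CPM. Map3k7 in PBS+PBS 3 was 18.6 CPM against 21.7 to 22.2 CPM. The Sharpin to Rbck1 ratio of counts in DEX+PBS 2 was 0.296 against 0.439 to 0.464. No cause was tested for any of these values.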

How the results depend on the processing

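The 2 members called in PBS+TNF against PBS+PBS, Rnf31 and Traf2, became 1 (Rnf31) with no low-count filter, 1 to 2 with each library left out, and 5 without DEX+TNF 3 and 4, a setting chosen after seeing the data, under which the 0 called in DEX+TNF against DEX+PBS became 4 (0 to 0 with single libraries left out). No member was called in any setting in the other comparisons. With the replicate block 2 and 0 members were called in these comparisons, though whether the numbers pair the libraries is not known. Over all genes the block gave 16 in place of 40 for DEX+TNF against PBS+TNF and 0 in place of 40 for DEX+TNF against DEX+PBS. DESeq2 called 243 genes in each of these comparisons, and fits on the compared groups alone called 0 in both.

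Small log2 fold changes changed sign. Sharpin in PBS+TNF against PBS+PBS was -0.084 with upper-quartile factors, -0.00149 when only genes averaging 5 CPM or more were kept, and -0.089 to 0.14 with a library left out. In the same comparison the ranges were -0.092 to 0.12 for Rbck1, -0.14 to 0.074 for Otulin and -0.34 to 0.11 for Tab2. In DEX+TNF against DEX+PBS they were -0.10 to 0.030 for Rbck1 (0.043 without DEX+TNF 3 and 4), -0.14 to 0.10 for Otulin and -0.11 to 0.16 for Tab2 (-0.047 with upper-quartile factors). The Traf2 interaction was 0.10 without DEX+TNF 3 and 4 and -0.48 to -0.07 with single libraries left out. Log2 ratio differences with a library left out ran from -0.10 to 0.16 for Otulin to Rnf31 and -0.22 to 0.29 for Tab2 to Map3k7 in DEX+PBS against PBS+PBS, from -0.043 to 0.21 for Sharpin to Rbck1 in PBS+TNF against PBS+PBS and from -0.016 to 0.20 in DEX+TNF against PBS+TNF. The cause was not tested. Upper-quartile factors moved the all-gene median log2 fold change in PBS+TNF against PBS+PBS from -0.03 to -0.15 and the share of calls that were higher from 57.2% to 46.3%. The Traf1 to Traf2 ratio could not be computed without an added count, since Traf1 was at 0 in most libraries. Depth limits Traf1, with at most 4 counts.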
